A study of Homo sapiens with 6 samples.

Results

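The cytosolic ribosomal protein genes encode the proteins of the ribosome outside mitochondria. They were taken from the deposited table by symbol, as RPL or RPS followed by a number (with the usual letter endings), with the stalk genes RPLP0, RPLP1 and RPLP2, and with RPSA and FAU added. The S6 kinase genes, the Y-linked copies and pseudogene symbols were left out. Of 89 symbols matched among 59151 rows, 84 had a mean of at least 1 FPKM (fragments per kilobase of gene, scaled to library size) over the 6 libraries and are the members described here: 51 of the large and 33 of the small subunit. In all, 18162 genes reached that level.

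The libraries came from forebrain neuron progenitors at day 26 of differentiation. They derive from H9, a long-established line of human embryonic stem cells. Cells with the genotype circRTN4(2,3) knockdown carried shRNA2 or shRNA1, each a hairpin against that circular RNA of the RTN4 gene, and cells labelled WT carried a scramble hairpin, with 2 libraries per group. Total RNA was depleted of ribosomal RNA before sequencing, and the series was made to study the function of circRTN4(2,3). The labels do not say whether replicates were separate cultures, and the p-values reflect how far the libraries of a group differ, a spread that may be technical.

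Ribosomal proteins assemble with ribosomal RNA into a small subunit, which reads the mRNA, and a large subunit, which joins the amino acids. Because each ribosome holds 1 copy of most of them, their genes are usually expressed together. Their mRNAs typically begin with a run of C and T letters at the very start, the terminal oligopyrimidine or TOP motif, through which growth signalling by mTORC1 and the protein LARP1 adjusts their translation and stability. In the developing forebrain, dividing progenitors are known for high ribosome production, which declines as neurons mature.

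The start sites below are shown because the TOP run is what most members share outside their protein sequence. Among the paralogs shown, RPL22L1 has it, while RPS27L, RPL26L1 and RPL7L1 lack it. Each line holds 60 bases of RefSeq GRCh38.p14, 40 before and 20 from the annotated transcript start, on the strand of the gene. Capitals mark an unbroken run of at least 5 C or T letters that begins with C at the first transcribed base.
RPL11: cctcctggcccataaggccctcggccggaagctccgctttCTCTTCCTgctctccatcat
RPS6: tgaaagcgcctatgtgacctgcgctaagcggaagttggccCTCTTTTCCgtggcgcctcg
RPS23: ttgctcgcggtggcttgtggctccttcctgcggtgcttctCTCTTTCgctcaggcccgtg
RPL26: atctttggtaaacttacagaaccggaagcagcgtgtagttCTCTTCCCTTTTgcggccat
RPL26L1: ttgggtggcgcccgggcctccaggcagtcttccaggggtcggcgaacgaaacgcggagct
RPS27: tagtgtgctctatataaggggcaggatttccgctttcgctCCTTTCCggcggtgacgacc
RPS27L: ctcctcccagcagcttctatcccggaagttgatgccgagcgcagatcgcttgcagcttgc
RPL22: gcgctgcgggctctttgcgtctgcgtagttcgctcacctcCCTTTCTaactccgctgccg
RPL22L1: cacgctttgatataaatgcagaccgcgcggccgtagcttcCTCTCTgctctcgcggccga
RPL7L1: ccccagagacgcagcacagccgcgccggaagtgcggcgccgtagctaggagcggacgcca
RPL39: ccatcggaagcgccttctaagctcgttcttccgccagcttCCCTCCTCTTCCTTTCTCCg
RPL17: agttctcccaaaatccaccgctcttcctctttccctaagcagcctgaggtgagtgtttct
The RPL17 line, from the reverse strand at chr18:49492446-49492505, has a pyrimidine stretch before the annotated start and none at it, so a match depends on which start is annotated. The RPL11 line lies at chr1:23691766-23691825 on the forward strand and the RPS6 line at chr9:19380217-19380276 on the reverse strand. The RPS27L line lies at chr15:63157458-63157517 and the RPS27 line at chr1:153990722-153990781.

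RefSeq windows were used for 67 of the members. Windows on chromosome 8 were left out, for members and for all other genes. A run as defined above stood at an annotated start of 48 of the 67 (71.6%), against 988 of 15843 protein-coding genes with a window (6.24%). The large subunit had it in 29 of 41 genes and the small subunit in 19 of 26. From 10 bases before the start to base 15 after it, on the coding strand, CTTTC occurred in 46.3% of members, against 5.07% of all these genes, and CTCTT in 40.3%, against 4.73%. The letters CCGGAA, sought on both strands of the whole window from 250 bases before to 50 after the start, were in 58.2% of members and 26.6% of all, while TATAAA between 40 and 15 bases before the start was in 4.48% and 4.19%. These matches are descriptions of letters; the pentamers can overlap the run and each other.

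The data hold the members at widely different levels: their means over the 6 libraries started at 1.65 FPKM and had a median of 22.7 FPKM. The median was 22.5 FPKM for the large and 23.3 FPKM for the small subunit. Among the small subunit genes with high levels were RPS12 at 90.7 FPKM and RPS4X, which is made from the X chromosome, at 86.8 FPKM. In the large subunit RPL19, which bridges the subunits, led with 71.6 FPKM, followed by RPL7A at 69.2 and RPL8 at 62.9 FPKM. The lowest small subunit genes were RPS28 at 1.65, RPS26 at 3.57 and the paralog RPS27L at 3.87 FPKM, and the lowest large subunit genes were RPL36A at 1.89, the paralog RPL39L at 1.96 and RPL12L3 at 2.40 FPKM.

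**Figure D1:**
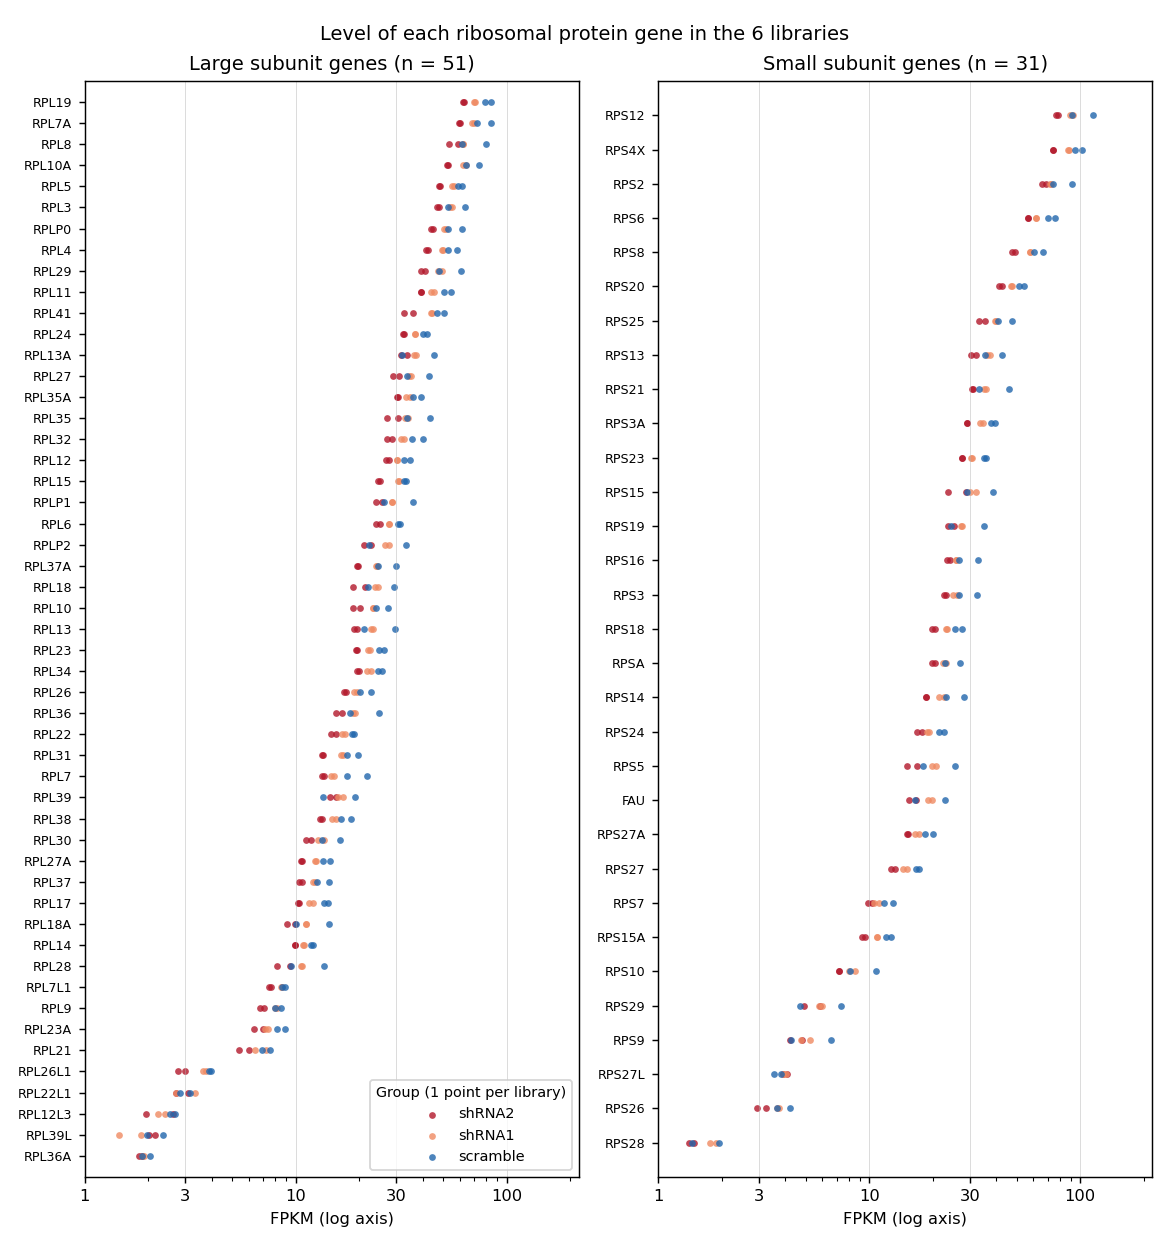
FPKM on a log axis of 82 of the 84 ribosomal protein genes, with 1 point per library, large subunit left and small subunit right, ordered by mean. RPS12 has a mean of 90.7 FPKM and RPL19 one of 71.6 FPKM, and in most rows the shRNA2 points lie left of the shRNA1 points and these left of the scramble points.

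The levels depend on the gene length used. FPKM divides by the summed length of all annotated exons, which for the 83 members with a GENCODE v29 length ranged from 767 to 9845 bases. RPS29, a zinc finger protein of the small subunit, had 9845 bases and 5.75 FPKM, and would stand at 83.6 FPKM if its principal transcript of 677 bases were used instead. RPS28 and RPS26 were still among the lowest on that scale, at 2.63 and 5.76 FPKM. The order of the 74 members with a principal transcript was similar on both scales (Spearman's rho = 0.84, across genes that share libraries). RPL7A was above its neighbour RPL8 in each of the 6 libraries, although their ranges over libraries overlapped. At the boundary of the rule, RPS28, RPL36A and RPL39L were just inside at 1.65, 1.89 and 1.96 FPKM, and RPS10L was just outside at 0.254 FPKM. RPL3L, a muscle form of RPL3, and RPL10L, a testis form of RPL10, were at 0.0306 and 0.00682 FPKM. RPS2L1 and RPS5L were at 0.141 and 0.114 FPKM. RPL12L3, RPS10L, RPS2L1 and RPS5L are older symbols of the pseudogenes RPL12P12, RPS10P5, RPS2P7 and RPS5P3 in RefSeq, so RPL12L3 is a member by its symbol only.

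With either hairpin the ribosomal protein genes as a group were at lower values than in scramble, and lowest with shRNA2. The median member stood at 19.8 and 19.5 FPKM in the shRNA2 libraries, at 23.0 and 23.1 FPKM in the shRNA1 libraries, and at 23.6 and 27.8 FPKM in the scramble libraries. The summed FPKM of the members was 2120 and 2053 with shRNA2, 2414 and 2397 with shRNA1, and 2486 and 2894 in scramble. The shRNA2 libraries were lowest in both measures, and the shRNA1 libraries were close below scramble replicate 1. As a share of all FPKM the members made up 1.16% and 1.14% with shRNA2, 1.182% and 1.204% with shRNA1, and 1.35% and 1.22% in scramble. In bulk RNA, fewer cells of a type and less RNA per cell cannot be told apart.

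The group means were ordered shRNA2 below shRNA1 below scramble for 79 of the 84 members, 48 of 51 in the large and 31 of 33 in the small subunit. The share of all genes with this order, or with a given library lowest or highest, was not computed. Of all genes, 67.7% were lower with shRNA2 and 51.1% with shRNA1 than in scramble, and 66.9% were lower with shRNA2 than with shRNA1. The lowest of the 6 libraries was an shRNA2 library for 79 members. The highest was scramble replicate 2 for 72 members and scramble replicate 1 for 10. The scramble replicates therefore differed from each other in 1 main direction: replicate 2 was above replicate 1 for 72 of 84 members, by a median of 0.16 on the log2(FPKM + 1) scale and by -0.29 (RPL7) to 0.56 (RPLP2). The shRNA2 replicates differed by a median of -0.03 and the shRNA1 replicates by -0.01 (replicate 2 minus 1). For 36 of 84 members the gap between the scramble replicates was larger than the difference between knockdown and scramble.

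**Figure D2:**
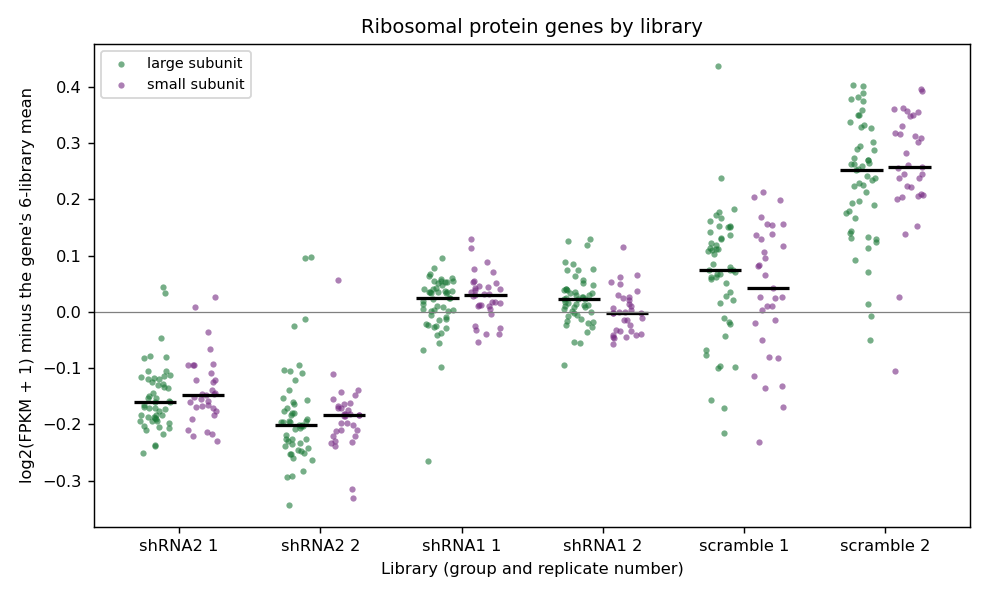
log2(FPKM + 1) of each ribosomal protein gene minus its own mean over the 6 libraries, by library, with large and small subunit genes side by side and black bars at the medians. The large subunit medians are -0.16 and -0.20 in the shRNA2 libraries, 0.02 and 0.02 in the shRNA1 libraries, and 0.07 and 0.25 in the scramble libraries.

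The totals behind the FPKM values were 77187298 to 83629504 reads in 5 libraries and 46634855 reads in scramble replicate 1. A member held 116 to 25325 recovered reads in a library, with a median of 5592. Genes with small RNA names took 35.8% to 37.7% of summed FPKM in the hairpin libraries, against 31.2% and 42.6% in scramble replicates 1 and 2. RTN4, the host gene, was at 31.2 and 31.3 FPKM with shRNA2, 34.2 and 34.7 FPKM with shRNA1, and 40.3 and 38.5 FPKM in scramble. Reads of the linear and circular RNA are mixed in such a gene value. All 12 progenitor markers had means of at least 1 FPKM, with sums of 258.7 and 250.1 FPKM with shRNA2, 246.2 and 246.7 FPKM with shRNA1, and 251.7 and 275.0 FPKM in scramble. Neuron markers (7 of 10 at 1 FPKM or more) summed to 308.3 and 309.0 with shRNA2, 356.3 and 360.5 with shRNA1, and 346.6 and 339.1 FPKM in scramble. Pluripotency markers (2 of 6) summed to 11.8 and 11.9 with shRNA2, 5.97 and 6.06 with shRNA1, and 5.01 and 4.99 FPKM in scramble, while POU5F1 and NANOG stayed at or below 0.0687 FPKM in every library. Choroid plexus and mesenchymal markers (3 of 10) summed to 1.86 and 1.89 with shRNA2, 3.13 and 3.32 with shRNA1, and 13.3 and 14.7 FPKM in scramble. Glial and microglial markers (1 of 7) summed to 1.72 and 2.06 with shRNA2, 1.51 and 1.60 with shRNA1, and 1.33 and 1.51 FPKM in scramble. Among these markers LIN28A and DPPA4 rose with shRNA2 (limma, log2 fold change 1.05 and 0.87, adjusted p = 0.0244 and 0.0353), TTR and COL3A1 fell (-2.79 and -2.03, both adjusted p = 0.00867), and no marker was at 0 in all libraries. The part of the marker shifts, depth or small RNA shares in the ribosomal protein values was not tested.

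The comparison of both hairpins with scramble takes the mean of the hairpin groups, so a value in it can rest mainly on either hairpin. All but 1 of the 84 members were lower in the knockdown, by a median of -0.24 on the log2(FPKM + 1) scale, a median change in mean FPKM of -16.3%. Over all 18162 genes tested the median was -0.03, and 63.1% were lower. Among genes of at least 5 FPKM the median was -0.08, and -0.25 for the members among them. None of the members passed the test (limma with Benjamini-Hochberg adjustment over all genes, threshold 0.05), where 0.0826% of all genes did (0.0771% lower). At an unadjusted p under 0.05, 54 of 84 members (64.3%) were lower and 0 higher, against 9.56% of all genes lower. For 47 members every knockdown library was below each scramble library (56.0%), against 12.6% of all genes, and RPS27L alone had every knockdown library above both.

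RPL17, RPL11, RPL23 and RPL19 had the smallest p in the large subunit; by fold change RPL7, at -0.44, was lowest. RPL11 is part of the 5S particle that can bind the p53 regulator MDM2, and RPL17 lines the tunnel through which the new peptide leaves. RPL11 (chromosome 1, 23691779 to 23696835) had 39.2 and 39.2 FPKM with shRNA2, 43.7 and 45.0 FPKM with shRNA1, and 50.7 and 54.2 FPKM in scramble. RPL17 (chromosome 18, 49488481 to 49492465) had 10.4 and 10.3 FPKM with shRNA2, 11.6 and 12.1 FPKM with shRNA1, and 14.3 and 13.6 FPKM in scramble. Both were without overlap between groups; the RPL17 locus also carries a readthrough row of higher level. The log2 fold changes were -0.32 ± 0.049 (SE) for RPL11, -0.31 ± 0.044 for RPL17, -0.29 ± 0.044 for RPL23 and -0.29 ± 0.050 for RPL19 (limma, adjusted p = 0.115, 0.115, 0.115 and 0.135).

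RPS23, RPS3A and RPS6 were among the small subunit genes with the smallest p. RPS6 is phosphorylated by the S6 kinases that mTORC1 switches on, and RPS23 lies at the decoding site. RPS6 (chromosome 9, 19375715 to 19380236) had 56.6 and 56.5 FPKM with shRNA2, 61.6 and 61.4 FPKM with shRNA1, and 70.7 and 76.0 FPKM in scramble. RPS23 (chromosome 5, 82273320 to 82278354) had 27.6 and 27.4 FPKM with shRNA2, 30.2 and 30.6 FPKM with shRNA1, and 34.9 and 35.8 FPKM in scramble. The order shRNA2, shRNA1, scramble held without overlap in both. The log2 fold changes were -0.28 for RPS23, -0.29 for RPS3A and -0.31 for RPS6 (limma, adjusted p = 0.115, 0.115 and 0.13).

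Large and small subunit genes moved by almost the same amount. The median log2 fold change was -0.24 for the 51 large and -0.25 for the 33 small subunit genes in the knockdown, a difference of 0.009, against a replicate SD of 0.046 for the large minus small difference within a group. At an unadjusted p under 0.05, 34 of 51 large and 20 of 33 small subunit genes were lower (66.7% and 60.6%, against 9.56% of all genes). The genes with every knockdown library below each scramble library were 29 of 51 and 18 of 33 (56.9% and 54.5%, against 12.6%). The summed FPKM of the large subunit over that of the small subunit was 1.26 and 1.26 with shRNA2, 1.26 and 1.29 with shRNA1, and 1.27 and 1.25 in scramble. Of the 84 members, 70 lay within 0.1 of the common median, so a gene was mostly told apart by its level and less by its fold change.

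**Figure D3:**
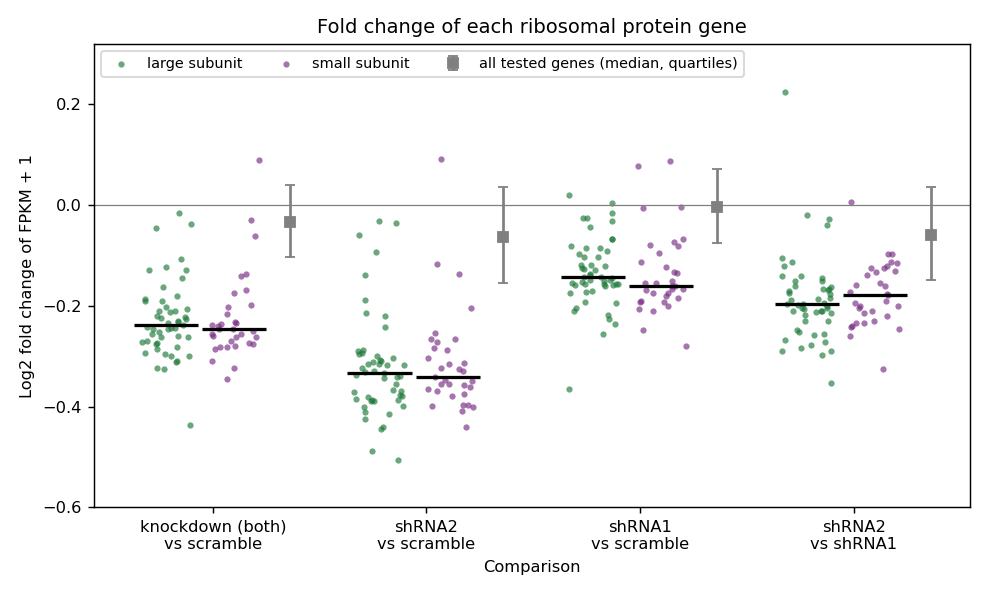
Log2 fold change of FPKM + 1 of each ribosomal protein gene in 4 comparisons, large and small subunit side by side with black bars at the medians; grey squares and whiskers are the median and quartiles of all 18162 genes tested. Both subunits have their medians at about -0.24 and -0.25 in the knockdown, and at -0.33 and -0.34 for shRNA2 against scramble.

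With shRNA2 alone against scramble, 83 of 84 members were lower, with a median of -0.33 against -0.06 for all genes, of which 67.7% were lower. The median change in mean FPKM was -22.2%. Of the members 1 passed, on the lower side, where 0.44% of all genes passed in that direction (0.628% in either). Just short of the threshold were RPL15 at -0.39, RPL17 at -0.40 and RPS3A at -0.40 (limma, adjusted p = 0.0548, 0.0575 and 0.0577). RPL15 binds deep in the large subunit, and RPS3A near the mRNA exit.

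At an unadjusted p under 0.05, 62 of 84 members were lower with shRNA2 (73.8%, against 14.4% of all genes), and 72 lay below both scramble libraries in both replicates (85.7%, against 34.4%). Leaving out scramble replicate 1 moved the member median with shRNA2 to -0.43, and leaving out scramble replicate 2 moved it to -0.24. With a library left out, its group rests on 1 library and the spread is taken from the other groups. No count of genes passing is therefore given here for such fits. With genes of at least 5 FPKM only, 28 of 75 members passed (37.3%), and 5.69% of all such genes. Their medians were -0.34 for the members and -0.13 for all such genes. Over all 84 members the subunit medians were -0.33 (large) and -0.34 (small). The largest values were RPL7 at -0.51 ± 0.10, a large subunit gene with 13.6 and 13.3 FPKM with shRNA2, 15.2 and 14.7 FPKM with shRNA1, and 21.7 and 17.6 FPKM in scramble (limma, adjusted p = 0.111), and RPL41 at -0.49 ± 0.070 (adjusted p = 0.0657). RPL7 is 1 of the members with scramble replicate 1 on top.

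With shRNA1 against scramble, 80 of 84 members were lower, with a median of -0.15 against 0.00 for all genes, of which 51.1% were lower. None passed (0.033% of all genes did, limma), and 28 had an unadjusted p under 0.05 on the lower side (33.3%, against 5.15%). Both shRNA1 libraries were below both scramble libraries for 49 members (58.3%, against 18.9%). RPS23 at -0.21 and RPL17 at -0.22 were among the members with the smallest p (limma, adjusted p = 0.34 and 0.372). The 4 members above scramble were RPS27L, RPS28, RPL39 and RPL22L1, by 0.09, 0.08, 0.02 and 0.00. Without scramble replicate 2, the higher of the scramble libraries, the median was -0.06 and 58 of 84 members were lower.

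Between the hairpins, 82 of 84 members were lower with shRNA2 than with shRNA1, with a median of -0.19 against -0.06 for all genes, of which 66.9% were lower. None passed the test, and 0% of all genes did (limma). At an unadjusted p under 0.05, 37 members were lower (44.0%, against 12.1%) and 0 higher. The hairpin libraries did not overlap, with shRNA2 below, for 77 members (91.7%), against 46.6% of all genes. RPL15 was at 25.2 and 24.6 FPKM with shRNA2 and at 30.5 and 30.9 FPKM with shRNA1, a log2 fold change of -0.29 ± 0.048 (limma, adjusted p = 0.137). RPL41, which encodes an extremely short basic peptide of the large subunit, was at 35.8 and 32.7 FPKM with shRNA2 and at 43.6 and 44.4 FPKM with shRNA1 (-0.35 ± 0.070, limma, adjusted p = 0.155). RPS3A and RPS4X had the smallest p in the small subunit, at -0.22 and -0.24. The subunit medians were -0.20 (large) and -0.18 (small). The contrasts above share libraries, so their values are set side by side and not counted as separate evidence.

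The members that stood apart from the common lower values were mostly paralogs and genes of low or very variable values. RPS27L, a paralog of RPS27 that is known as a target of p53, was the member above scramble in the knockdown. RPS27L (chromosome 15, 63148249 to 63157477) had 3.896 and 4.06 FPKM with shRNA2, 3.88 and 4.04 FPKM with shRNA1, and 3.82 and 3.52 FPKM in scramble, a log2 fold change of 0.09 ± 0.052 (limma, adjusted p = 0.524). RPS27 had 13.2 and 12.6 FPKM with shRNA2, 15.1 and 14.4 FPKM with shRNA1, and 16.6 and 17.2 FPKM in scramble, at -0.27 (adjusted p = 0.136). The groups did not overlap for RPS27, and for RPS27L the scramble pair was lowest.

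RPL22L1, a paralog of the RNA-binding protein RPL22, had 3.08 and 2.71 FPKM with shRNA2, 2.70 and 3.32 FPKM with shRNA1, and 3.16 and 2.82 FPKM in scramble. The groups overlapped, and its log2 fold change of -0.02 ± 0.089 changed sign under several scalings (limma, adjusted p = 0.962). RPL22 itself was at 14.7 and 15.6 FPKM with shRNA2, 16.6 and 17.2 FPKM with shRNA1, and 19.0 and 18.6 FPKM in scramble, at -0.22. The difference between the paralogs was not tested.

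RPL39L, a paralog of RPL39 that in mouse is best known from the testis, was the member with the highest value between the hairpins: 2.02 and 2.15 FPKM with shRNA2, against 1.45 and 1.84 FPKM with shRNA1, and 2.34 and 1.98 FPKM in scramble (shRNA2 over shRNA1, 0.23 ± 0.10, limma, adjusted p = 0.352). RPL39 had 14.5 and 15.5 FPKM with shRNA2, 16.7 and 15.9 FPKM with shRNA1, and 13.5 and 19.2 FPKM in scramble, where the scramble pair enclosed all other libraries. RPL26L1 had 3.00 and 2.75 FPKM with shRNA2, 3.63 and 3.76 FPKM with shRNA1, and 3.96 and 3.88 FPKM in scramble. It was at -0.21 in the knockdown, beside -0.23 for its parent RPL26. By hairpin it was at -0.34 with shRNA2 and -0.07 with shRNA1, beside -0.31 and -0.16 for RPL26, a difference that was not tested. RPL7L1, which acts in the making of the large subunit, had 7.44 and 7.61 FPKM with shRNA2, 8.51 and 8.58 FPKM with shRNA1, and 8.58 and 8.86 FPKM in scramble, at -0.11.

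**Figure D4:**
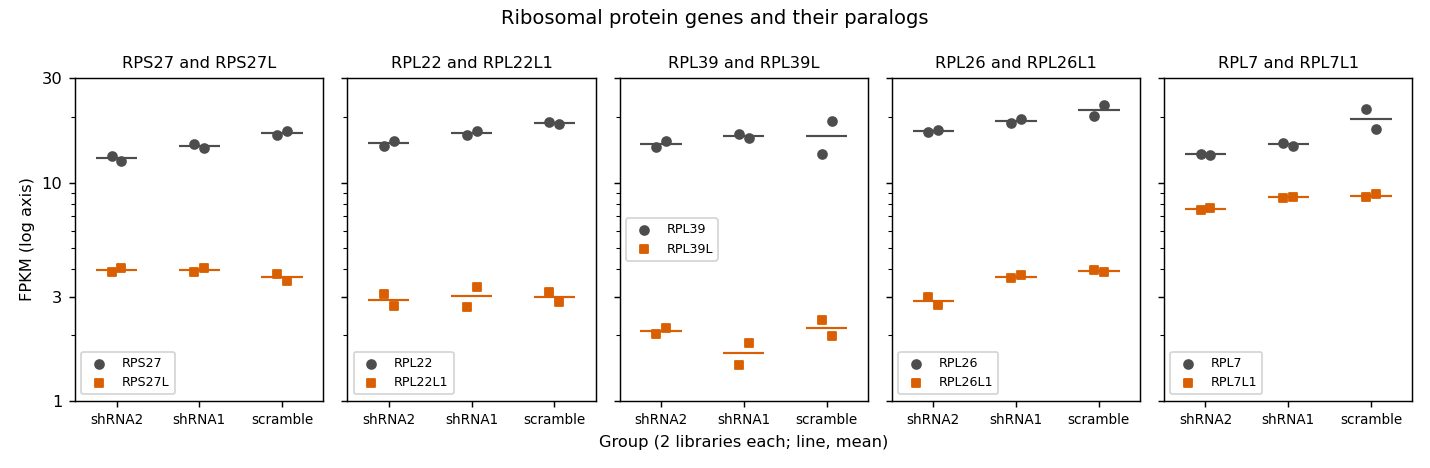
FPKM on a log axis of 5 ribosomal protein genes (grey circles) and their paralogs (orange squares), with 1 point per library and a line at the mean of each group. RPS27 is lowest with shRNA2 and highest in scramble, where it reaches 17.2 FPKM, while RPS27L lies between 3.52 and 4.06 FPKM in all libraries.

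The acidic stalk, which recruits the elongation factors, is made of RPLP0, RPLP1 and RPLP2. RPLP0 had 44.6 and 43.7 FPKM with shRNA2, 50.6 and 51.6 FPKM with shRNA1, and 52.7 and 61.2 FPKM in scramble. RPLP1 had 25.7 and 24.1 FPKM with shRNA2, 28.7 and 28.7 FPKM with shRNA1, and 26.1 and 35.9 FPKM in scramble. RPLP2 had 22.7 and 21.1 FPKM with shRNA2, 26.4 and 27.8 FPKM with shRNA1, and 22.4 and 33.4 FPKM in scramble. The scramble replicates of RPLP1 and RPLP2 lay on both sides of the shRNA1 pair. The log2 fold changes in the knockdown were -0.25, -0.19 and -0.16 (limma, adjusted p = 0.245, 0.583 and 0.714).

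FAU and RPS27A are made as fusions with a ubiquitin-like protein and with ubiquitin. FAU had 16.6 and 15.4 FPKM with shRNA2, 18.9 and 19.8 FPKM with shRNA1, and 16.5 and 22.9 FPKM in scramble, at -0.14. RPS27A had 15.2 and 15.3 FPKM with shRNA2, 17.2 and 16.5 FPKM with shRNA1, and 18.4 and 19.99 FPKM in scramble, at -0.25. RPSA, which was also described as a laminin receptor, was at -0.20. Neither passed the test in any comparison, nor did RPSA.

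Genes linked to Diamond-Blackfan anaemia, an inherited failure of red cell production, include RPL11, described above, and RPS19, RPS24, RPS26, RPS10, RPS7, RPL5 and RPL35A. Their log2 fold changes in the knockdown ran from -0.26 for RPS24 to -0.17 for RPS26 and for RPS19, leaving RPL11 aside, and none of these passed. RPL5, the partner of RPL11 in the 5S particle, had 48.2 and 47.9 FPKM with shRNA2, 56.3 and 55.3 FPKM with shRNA1, and 58.9 and 61.2 FPKM in scramble, at -0.21. RPS19 had 25.1 and 23.6 FPKM with shRNA2, 27.5 and 27.1 FPKM with shRNA1, and 24.5 and 34.9 FPKM in scramble. RPS19 showed the wide scramble pair that RPLP2 also had, and RPL5 did not. Among proteins discussed as variable parts of ribosomes, RPL10A was at -0.26, RPS25 at -0.26 and RPL38, which is needed for skeletal patterning in mouse, at -0.27.

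Members with a higher GC content tended to have scramble replicate 2 further above replicate 1. There were exceptions such as RPL39 (43.9% GC) and RPLP1 (47.7% GC), where this gap was wide too. Across the 74 members with a principal transcript, GC content and the difference between the scramble replicates had Pearson's r = 0.66 and Spearman's rho = 0.65, as a description over genes that share these libraries. The 25 members lowest in GC (40.6% to 47.5%) had a median gap of 0.08 between scramble replicates 2 and 1, the 24 in the middle had 0.11, and the 25 highest (52.0% to 64.6%) had 0.38. The fold change of the knockdown did not follow GC in this way: its medians were -0.24, -0.26 and -0.22 in the 3 groups, with r = 0.06 and rho = 0.17. The part of base composition in the values was not tested.

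**Figure D5:**
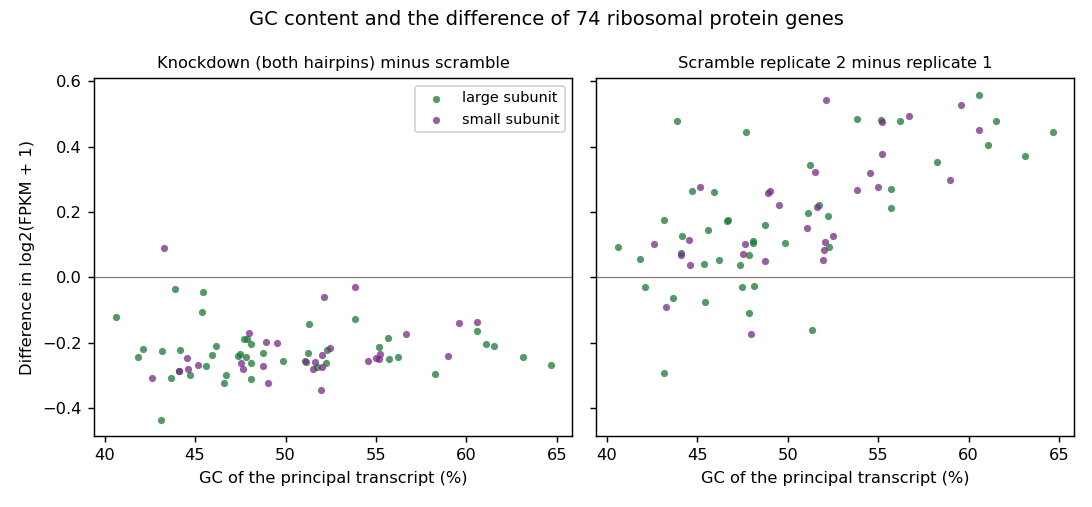
Difference in log2(FPKM + 1) against GC content of the principal transcript for 74 ribosomal protein genes, for the knockdown minus scramble on the left and for scramble replicate 2 minus replicate 1 on the right. The right panel has r = 0.66, with values up to 0.56, and the left panel has r = 0.06, with most values near -0.24.

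Members with and without the run at an annotated start had similar values. This split depends on which start is annotated, so it cannot separate TOP mRNAs from others with certainty. RPL19, for example, has no run but has CTTTC and CTCTT near an annotated start. The 48 with a run had a median log2 fold change of -0.25 in the knockdown, -0.34 with shRNA2 and -0.15 with shRNA1, and the 19 without had -0.23, -0.34 and -0.11. RPL17 and RPL19, among the lowest members, have no run at the annotated start, and RPL39, among the highest, has the 19-letter run printed above. Other members go the other way. RPS14, RPL11 and RPS6, also among the lowest, have runs of 10, 8 and 9 letters. RPS27L, RPS28 and RPS29, among the highest, have none. Genes with higher levels tended to have lower fold changes (Spearman's rho = -0.44 over 84 members between mean FPKM and the knockdown value). Adding 1 to FPKM shrinks the change of low genes, and its part in this tendency was not tested.

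Other TOP mRNAs, most of them for translation factors, had mostly lower values alongside the ribosomal protein genes. Of 25 tested, 24 were lower in the knockdown (96%, against 63.1% of all genes) with a median of -0.18, and 18 had an unadjusted p under 0.05 on that side (72%, against 9.56%). After adjustment 1 of the 25 passed. EEF1A1, which delivers the transfer RNAs to the ribosome, fell to 92.5 and 91.0 FPKM with shRNA2 and was at 178 and 181 FPKM with shRNA1, against 207 and 212 FPKM in scramble. Its log2 fold change was -0.70 ± 0.0515 in the knockdown (limma, adjusted p = 0.0414) and -1.18 ± 0.0595 with shRNA2 (adjusted p = 0.0182). EEF1B2 and EEF1G, subunits of the exchange factor that recharges it, fell with shRNA2 by -0.57 and -0.59 (limma, adjusted p = 0.0353 and 0.0486), and with shRNA1 were at -0.30 and -0.20 (adjusted p = 0.271 and 0.459). These values of EEF1A1 are larger than that of any ribosomal protein gene.

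Genes for the making of ribosomes had medians closer to that of all genes, although most of them were lower too. The medians in the knockdown and with shRNA2 were -0.09 and -0.14 for 58 ribosome biogenesis factors, -0.14 and -0.16 for 12 chaperones and exporters of ribosomal proteins, and -0.04 and -0.08 for 12 subunits of RNA polymerase I. The 75 mitochondrial ribosomal protein genes had -0.10 and -0.15, the 37 initiation factors -0.13 and -0.20, and the 10 elongation factors -0.17 and -0.34. The 18 genes of the mTORC1 pathway were at -0.06 and -0.06, and 19 targets of p53, which ribosomal stress is known to induce, at -0.02 and -0.07. In the knockdown 96.6% of the biogenesis factors, 93.3% of the mitochondrial ribosomal protein genes and 100% of the initiation and elongation factors were lower. The share was 83.3% for the chaperones and exporters, 75% for RNA polymerase I, 72.2% for the mTORC1 pathway and 57.9% for the p53 targets. Over all genes it was 63.1%. No gene of these lists passed in any comparison other than the 3 elongation factors named above. The median over the ribosomal protein genes was lower than that of each of these lists in the knockdown, and close to that of the elongation factors with shRNA2; the differences between lists were not tested.

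Many ribosomal protein genes have processed pseudogenes, near-identical copies to which reads can be assigned. Pseudogene symbols, without those that GENCODE v29 lists as coding, had 325 rows, 81 of them with a mean of at least 1 FPKM. The 17 rows of at least 10 FPKM, from 14 parent genes, were all lower in the knockdown, with a median of -0.26, with shRNA2 (-0.34) and with shRNA1 (-0.17); RPSAP58, among them, is listed as the coding gene RPSA2 in RefSeq. The 64 rows between 1 and 10 FPKM had a median of 0.02, and 30 of them were lower. In recovered reads, the pseudogene rows held 9.93% to 10.6% of the reads of members and pseudogenes together in all 6 libraries. For RPL9 the share was 81.1%, for RPL39 67.4%, for RPL41 52.1% and for RPL13A 51.8%, while it was under 5% for 61 of 83 members. RPL9P7 had 157 and 161 FPKM with shRNA2, 180 and 176 FPKM with shRNA1, and 188 and 216 FPKM in scramble, where RPL9 itself had 7.10 and 6.74 FPKM with shRNA2, 7.94 and 8.19 FPKM with shRNA1, and 7.93 and 8.53 FPKM in scramble. The levels of these 4 members are therefore uncertain. RPL31P61 was the 1 pseudogene that passed, higher with shRNA2 (0.68, limma, adjusted p = 0.0393).

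Summing each member with its pseudogene rows, a choice made with the values in view, moved no median beyond the replicate spread. For RPL39 the summed reads were at -0.17 in the knockdown, where its own row was at -0.04, and for RPL9 they were at -0.21, where its own row was at -0.12. Readthrough rows share the loci of 3 members. RPL36A-HNRNPH2 had 10.1 and 10.3 FPKM with shRNA2, 10.8 and 11.1 FPKM with shRNA1, and 11.7 and 10.5 FPKM in scramble, more than RPL36A. RPL17-C18orf32 had 16.1 and 16.4 FPKM with shRNA2, 19.3 and 19.9 FPKM with shRNA1, and 22.8 and 21.7 FPKM in scramble, more than RPL17, and was at -0.30 in the knockdown. RPS10-NUDT3 averaged 12.7 FPKM, against 8.31 FPKM for RPS10, and was at -0.14 where RPS10 was at -0.25. The values of RPL36A, RPL17 and RPS10 are uncertain for this reason.

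Introns of ribosomal protein genes carry snoRNAs, short guides for the modification of ribosomal RNA that are cut from the same transcript. Of 59 snoRNA rows inside member loci, in 28 host genes, 58 had a mean of at least 1 FPKM, between 1.01 and 11.1 FPKM. Their median log2 fold change was 0.07 in the knockdown, 0.06 with shRNA2 and 0.05 with shRNA1, with 24, 23 and 23 of 58 lower, and none passed. Their 27 hosts had medians of -0.24, -0.33 and -0.15. The snoRNA values spread widely, from -0.58 to 0.95 in the knockdown. A difference between the snoRNAs and their hosts was not tested.

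Scaling and single libraries moved the size of the ribosomal protein median, which was below 0 in all 4 comparisons under each alternative run. Scaling to genes other than small RNA and mitochondrial genes moved the median of all genes with shRNA2 by 0.12, to 0.06, and the ribosomal protein median to -0.17, which is 0.23 below all genes, against 0.27 below them in the values as deposited. With quantile normalization the ribosomal protein median was -0.12 in the knockdown and -0.15 with shRNA2, with 80 and 81 of 84 members lower. Without scramble replicate 2 it was -0.16 and -0.24, and without scramble replicate 1 -0.33 and -0.43. With genes of at least 5 FPKM only, the ribosomal protein median was -0.15 with shRNA1, against -0.03 for all such genes. Between the hairpins it was -0.20, against -0.10.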

How the data were processed

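The deposited table holds FPKM values per gene symbol for 6 libraries, per the file headers; by definition this unit is a fragment count divided by gene length and library total. Per the submitters' processing notes, Trimmomatic 0.39, HISAT2 2.1.0, SAMtools 1.9 and featureCounts 2.0.1 were used with GRCh38 (hg38). The annotation, strand setting and treatment of multiply matching reads have no source here (not given in the sources used here), so overlapping, antisense and near-identical genes cannot be separated with certainty. Library totals and recovered reads were derived from the values with GENCODE v29 exon lengths; of 83 members with a length, 47 gave hundredths of a read within 0.001 in all libraries, and 17.0% of their 282 values were whole, so no count test was run. One read on 1 kb was worth 0.012 to 0.0214 FPKM, and such limits describe counting error alone.

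The scale was log2(FPKM + 1), over genes averaging 1 FPKM or more, which understates the change of low genes. The 3 groups entered 1 limma fit (limma 3.58.1, R 4.3.3) with a trended prior, two-sided, with Benjamini-Hochberg adjustment over all 18162 genes and a threshold of 0.05. The knockdown was the mean of both hairpins. The fit was tested on simulated data. Summaries used Python 3.11.15, pandas 2.3.3, numpy 2.4.6 and matplotlib 3.10.9. Named members were those called, the 4 of each subunit with the smallest p in each comparison, the 3 highest and lowest of each subunit, the paralogs and their parents, the stalk, the ubiquitin fusions, RPSA, the anaemia genes, and RPS6, RPL10A, RPS25, RPL38 and RPS4X; not all are printed with values, and some members are not reported here. RPL9, RPL13A, RPS29 and the pseudogenes were named after their values were seen. The members and lists were chosen with earlier results of these data known. Alternatives were a pseudocount of 0.1, a mean of at least 5 FPKM, no filter, 3 other scalings, a replicate block, and leaving out each library. Added after the data were seen were members summed with their pseudogene rows, the list without RPL12L3 and the members with a readthrough row, and the principal transcript length. Gene positions and start windows are from RefSeq GRCh38.p14.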

Additional observations from a re-analysis of the deposited data

How the results depend on the processing

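The ribosomal protein median stayed below 0 in all 4 comparisons under every alternative run. It moved beyond the replicate SD (0.093) with quantile normalization, to -0.12 (knockdown), -0.15 (shRNA2 against scramble) and -0.087 (shRNA2 against shRNA1), and with scaling to genes that are not small RNAs or mitochondrial, to -0.14, -0.17 and -0.081. For shRNA1 against scramble these gave -0.064 and -0.10, against -0.15, with 70 and 74 of 84 members lower, against 80. Leaving out 1 library gave -0.33 to -0.16 (knockdown), -0.43 to -0.24 (shRNA2), -0.23 to -0.06 (shRNA1) and -0.21 to -0.16 (between hairpins); the cause was not tested. The large minus small subunit median moved only with shRNA2, to -0.044 after quantile normalization and between -0.039 and 0.015 with a library left out.

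Of 84 members, 1 was called with shRNA2, and 0 under a pseudocount of 0.1, no filter, each of the 3 other scalings and the replicate block. At 5 FPKM or more 28 of 75 were called (37.3%, against 5.69% of all such genes). With a library left out 0 to 73 of 84 were called. In the knockdown 1 of 75 was called at 5 FPKM or more (1.33%, against 0.764% of all such genes). With a library left out there were 0 to 46 of 84 in the knockdown (46 without scramble replicate 1). Between hairpins there were 0 to 23 of 84 (23 without either scramble library). A group then rests on 1 library, so no conclusion is drawn from counts with a library left out. The highest counts of all genes with a library left out, given below, also came from fits without a scramble library. The high member counts are therefore not particular to the ribosomal protein genes. Of the fold changes of 48 named members in the 4 comparisons, 81 came to pass without scramble replicate 1 and 29 without scramble replicate 2.

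All genes called were, in the knockdown, 15, and 35 (5 FPKM), 0 (no filter), 27 (median of ratios), 30 (quantile), 26 (without small RNAs) and 0 to 507 (a library left out). With shRNA2 they were 114 (34 higher, 80 lower), and 261 (36, 225), 0, 75 (28, 47), 71 (37, 34), 79 (50, 29) and 0 to 2418 in the same order. With shRNA1 they were 6, and 2 (pseudocount of 0.1), 3 (5 FPKM), 0 (no filter) and 0 to 1, and between hairpins 0, and 46 (5 FPKM) and 0 to 1029. The replicate block gave 1, 0, 0 and 0 genes in the knockdown, shRNA2, shRNA1 and hairpin comparisons and no member; equal numbers did not pair the libraries (correlation of deviations 0.012, -0.0077 and -0.15). Summing members with their pseudogene rows, or leaving out RPL12L3 and members with a readthrough row, both chosen after the data were seen, moved no median beyond the replicate spread. A lone library was assumed to vary like the others, but the scramble replicates of the members differed more than the hairpin replicates. Their median gaps were 0.16 in scramble, -0.03 with shRNA2 and -0.01 with shRNA1. Depth limits the lowest members, which held from 116 reads in a library.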
